A study of Mus musculus with 8 samples.

Results

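The genes described here encode voltage-gated calcium channels, voltage-gated sodium channels and the TRPC, TRPM and TRPV cation channels, read on single-colour arrays of whole pancreas. They were chosen by gene name alone (Cacna, Cacnb, Cacng, Scn, Trpc, Trpm or Trpv followed by a digit), with no measured difference used, which gave 59 genes on 112 of the array's 41174 probes. The scanner software flags a spot as well above background when it stands clear of the local background, and 4 such arrays of 8 were required of a probe. Of the 59 genes, 49 had a probe that met this, out of 22701 gene names with such a probe on the whole array. Each gene was read from its brightest such probe. Among the 49, Trpc4ap encodes a protein that associates with a TRPC channel and is not itself a channel. The mice were C57BL/6 pups aged 1 week, kept with their biological mother, and were either wild type (WT, 4 arrays) or Glis3KO2 (4 arrays). The labels name Glis3KO2 as a genotype and do not give the deleted part of Glis3, a zinc finger transcription factor, and the study's title concerns the development and maturation of beta cells. The labels do not tie the pups to litters, and the p-values rest only on the spread among these 8 samples, which may be partly technical.

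Voltage-gated calcium and sodium channels open when the membrane depolarises. A large pore subunit carries the ion, and smaller subunits set how many channels reach the membrane and how they gate. In beta cells, closure of potassium channels by glucose metabolism depolarises the membrane, L-type and other calcium channels open, and the calcium that enters triggers insulin release. TRP channels are cation channels that respond to calcium, lipids, temperature, osmotic pressure or oxidants. Several of them help to depolarise beta cells, and others move calcium or magnesium across epithelia.

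None of the 49 channel genes passed the test between the genotypes (limma, Benjamini-Hochberg adjustment over all 33239 tested probes, adjusted p of 0.05). Over all tested probes, 0.256% did so, with 27 (0.0812%) higher and 58 (0.174%) lower in Glis3KO2. At an unadjusted p of 0.05, 5 of the 49 genes passed (10.2%), against 8.97% of all tested probes, so the channel genes stood close to the background. Trpm5, Trpm2 and Cacna1b were lower in Glis3KO2 (6.12% of the genes, against 5.87% of all probes), and Trpv6 and Cacna1g were higher (4.08%, against 3.1%). The genotypes did not overlap for 3 of the 49 genes (6.12%), Trpm5, Trpm2 and Cacna1b, against 5.2% of all tested probes. These 3 were lower in Glis3KO2, as were 3.35% of all tested probes without overlap, and 0 of the 49 were higher without overlap, against 1.85% of all tested probes. The first 30 bases of the probes that read these 5 genes, and of both tested Cacna1s probes, are given as the array files give them, 5′ to 3′. They identify the probes behind the values described next, and all letters are in lower case because no part is marked.
Trpm5: attctggcagaaaccccaagatattgctca
Trpm2: ctgtcatggcttctaagaggaaagtacaat
Cacna1b: ggttttcagtcacaacactttcactgtttg
Trpv6: gacagctaaggtcatcctgcgagtccaagg
Cacna1g: catcttcaacggaaagcgagaaccattttg
Cacna1s, brighter probe: cacaaaggcctgatcggtgccagggtctgt
Cacna1s, dimmer probe: agcattacaaccagtcggaacagatgaacc

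These 60-base probes lie, by the coordinates of the array design on mouse build mm7, at chr7:139499090-139499149 (Trpm5), chr10:77564108-77564167 (Trpm2), chr2:24613214-24613273 (Cacna1b), chr6:41552038-41552097 (Trpv6) and chr11:94517588-94517647 (Cacna1g), all on the minus strand. The brighter Cacna1s probe lies at chr1:136005651-136005710 and the dimmer one spans chr1:135984897-135986865, both on the plus strand. No annotation of that build was used here, so exon and UTR positions are not given.

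As checks of the labels and of the islet content, Glis3 and the insulin genes were read on the same arrays. Glis3 had log2 signals of -6.06, -5.41, -5.50 and -5.35 on WT arrays 1 to 4 and of -6.06, -6.43, -5.93 and -6.15 on Glis3KO2 arrays 1 to 4, relative to each array's 75th percentile, the scale used for all levels here (arrays are numbered by their replicate number). Its probe stood clear of background on 3 WT arrays and 0 Glis3KO2 arrays and was too dim for the test, and a probe outside the deleted part would check nothing. Of 10 beta cell markers, 7 fell past the adjusted threshold, against 0.174% of all tested probes, and the median log2 difference of these markers was -1.38. Their summed signal, in units of the 75th percentile, was 734 to 904 on WT arrays and 192 to 397 on Glis3KO2 arrays. In whole pancreas, fewer cells of a type and less RNA per cell cannot be told apart. The WT arrays shared 1 slide and the Glis3KO2 arrays a different one, which means that effects of slide and of genotype cannot be told apart either. Xist, the RNA that coats the silenced X chromosome in females, was high on WT replicate 4 and on Glis3KO2 replicates 1, 3 and 4 and low on the others, so the sexes were not balanced. Principal component 1 over all tested probes set Glis3KO2 replicates 3 and 4 apart, at 39.8 and 59.0 where the other 6 arrays lay between -26.0 and 0.46. Of the 49 channel genes, 46 to 49 were well above background per array.

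**Figure D1:**
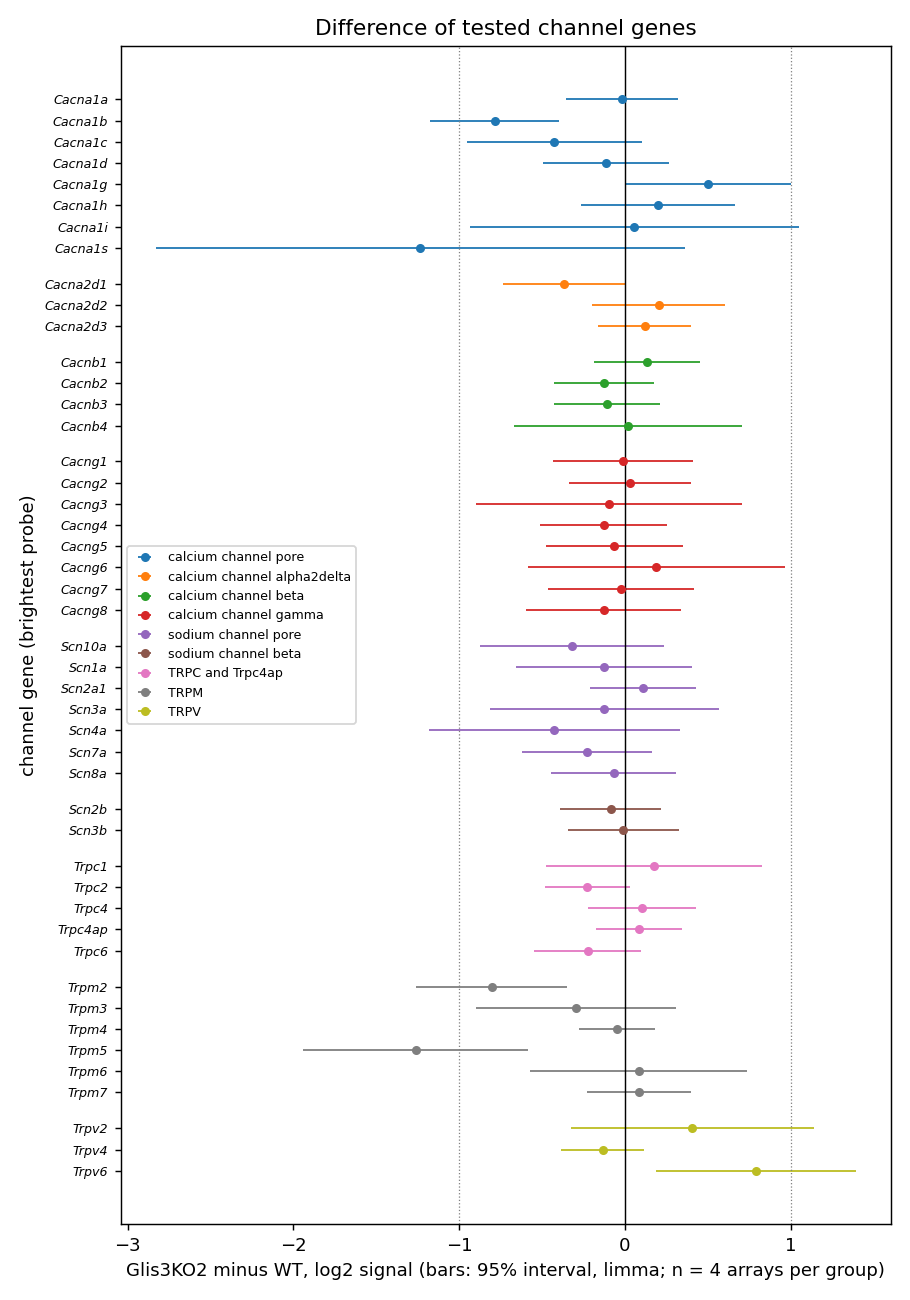
Difference between Glis3KO2 and WT for 46 of the 49 tested channel genes on the log2 scale, with the 95% interval from limma as the bar (n = 4 arrays per group) and dotted lines at a log2 difference of 1 in either direction. Trpm5 (-1.26) and Cacna1s (-1.23) lie farthest below 0 and Trpv6 (0.79) farthest above, and 9 of the intervals drawn reach beyond the dotted lines.

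As a whole the channel genes differed little between the genotypes. The median log2 difference was -0.07 over the 49 genes and -0.0088 over all tested probes, and 31 of the 49 genes (63.3%) had a negative difference, against 52.0% of all probes. Without Glis3KO2 replicates 3 and 4, left out together after the data were seen, 20 of the 49 were negative and the median was 0.03. For 43 of the 49 genes the difference was smaller than 0.5 in either direction. For 40 genes (81.6%) the 95% interval of the single gene, which is not adjusted for the number of genes, lay within a 2-fold change either way, against 90.5% of all tested probes. The 9 genes whose interval reached beyond a 2-fold change were Cacna1b, Cacna1g, Cacna1i, Cacna1s, Scn4a, Trpm2, Trpm5, Trpv2 and Trpv6. For these a change of that size was not detectable or not excluded with 4 arrays per genotype.

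The pore subunits of calcium channels included the member with the smallest p, Cacna1b, which encodes the N-type channel of nerve terminals and endocrine cells. Cacna1b had log2 signals of -4.69, -4.74, -4.31 and -4.62 on WT arrays 1 to 4 and of -5.51, -4.95, -5.69 and -5.34 on Glis3KO2 arrays 1 to 4. Every Glis3KO2 array was below every WT array. The log2 difference was -0.78 (SE 0.17, a 1.72-fold lower signal), with an unadjusted p of 0.0014 and a limma adjusted p of 0.173. A dimmer probe of the gene, well above background on 3 arrays of each genotype, pointed the other way with a log2 difference of 0.59 (adjusted p = 0.860), and read -3.13 on Glis3KO2 replicate 3 against -7.08 to -5.13 on the other Glis3KO2 arrays. The mean of both probes differed by -0.096, and with normexp background correction the brighter probe differed by -0.27 (adjusted p = 0.616).

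Cacna1g, which encodes a T-type channel that opens at low voltage, had log2 signals of -1.19, -1.44, -0.74 and -0.41 on WT arrays 1 to 4 and of -0.35, -0.74, -0.25 and -0.43 on Glis3KO2 arrays 1 to 4. WT replicates 1, 2 and 3 were below every Glis3KO2 array, replicate 3 only just (-0.742, against -0.740 on Glis3KO2 replicate 2). WT replicate 4 lay within the Glis3KO2 range. Its log2 difference was 0.50 (SE 0.22), with an unadjusted p of 0.0497 and a limma adjusted p of 0.556. A second Cacna1g probe differed by 0.22 (adjusted p = 0.704). With the Xist level as a covariate the difference was 0.23. The other T-type genes differed by 0.20 (Cacna1h, SE 0.21) and 0.06 (Cacna1i, SE 0.44), and Cacna1i reached -2.84 on Glis3KO2 replicate 2 against -5.28 to -4.58 on the other Glis3KO2 arrays.

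Cacna1c and Cacna1d encode the L-type channels of beta cells. Cacna1d ranged from -2.28 to -1.58 in WT and from -2.31 to -1.87 in Glis3KO2 by its brightest probe, a log2 difference of -0.11 (SE 0.17, limma adjusted p = 0.898). The other tested pair of Cacna1d probes, named after their values were seen, differed by -0.48 and -0.36 with unadjusted p of 0.0137 and 0.0313 (adjusted p of 0.411 and 0.503), and for both every Glis3KO2 array was below every WT array. The probes of Cacna1d thus differed in size and had 1 sign. Cacna1c had a log2 difference of -0.42 (SE 0.23, limma adjusted p = 0.650) by its brighter probe and of -0.08 by the dimmer one. Cacna1a, the P/Q-type channel, differed by -0.02 (SE 0.15).

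Cacna1s, the L-type channel of skeletal muscle, showed the widest spread within both genotypes. Its brighter probe read 0.54, 0.85, 0.24 and -1.86 on WT arrays 1 to 4 and -1.69, 0.50, -1.99 and -1.98 on Glis3KO2 arrays 1 to 4. The 4 low arrays were the 4 on which Xist was high (4.72 to 5.10, against -6.97 to -5.87 on the others) and Ddx3y, a gene of the Y chromosome, was low (-8.45 to -7.72, against 0.38 to 0.54). The log2 difference between genotypes was -1.23 (SE 0.71, limma adjusted p = 0.667) and -0.05 with the Xist level as a covariate. The dimmer Cacna1s probe did not split this way: it ranged from -5.79 to -4.89 in WT and from -6.14 to -4.92 in Glis3KO2 (log2 difference -0.10). Of 8 skeletal muscle markers 0 passed the adjusted threshold and 0 an unadjusted p of 0.05 by limma, and their summed signal was 1.05 to 1.57 in WT and 1.18 to 1.63 in Glis3KO2. Whether the bright probe reads Cacna1s alone was not tested.

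**Figure D2:**
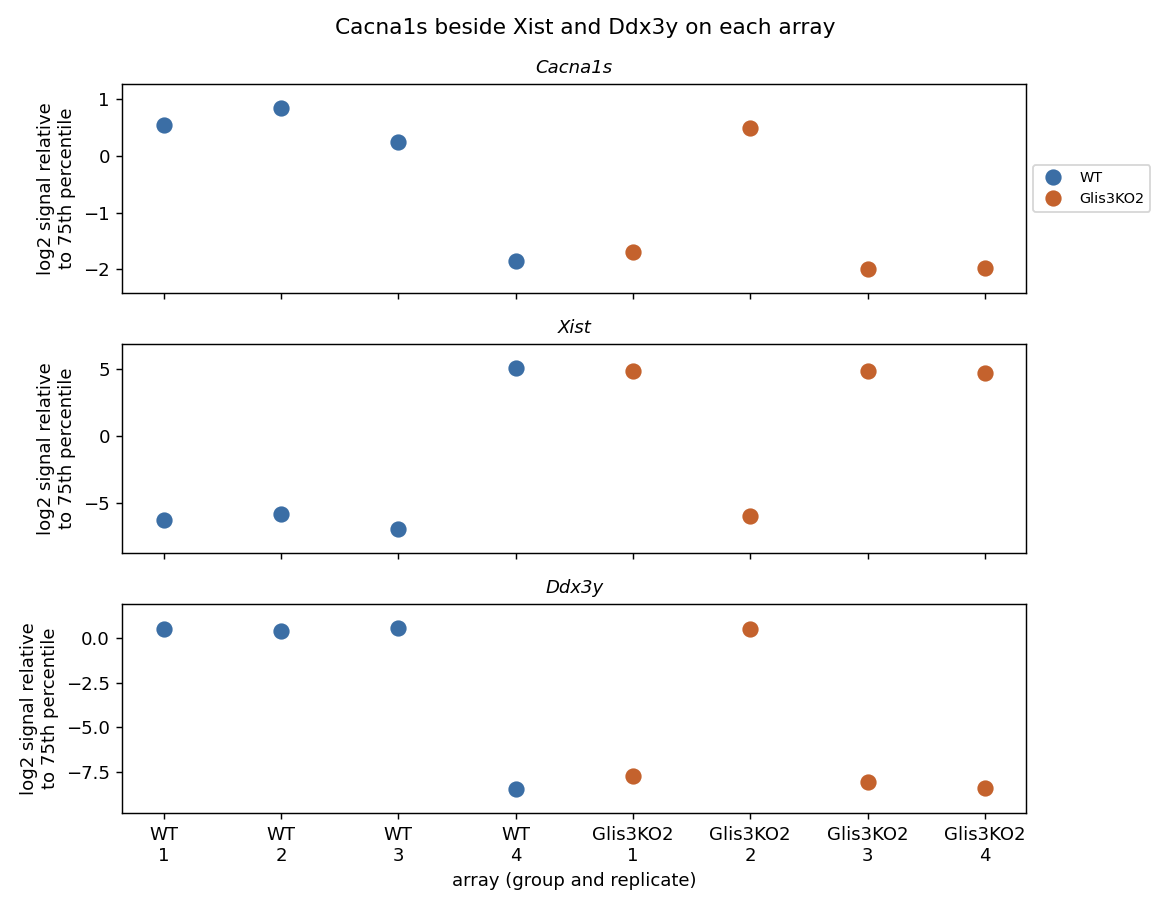
Log2 signal of the brighter Cacna1s probe (top), Xist (middle) and Ddx3y (bottom) relative to each array's 75th percentile, on the 4 WT and 4 Glis3KO2 arrays by replicate number. Cacna1s is between 0.24 and 0.85 on the 4 arrays with low Xist and high Ddx3y, and between -1.99 and -1.69 on the other 4.

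The accessory subunits of calcium channels, which carry the pore to the membrane and tune its gating, showed no call in any of their 3 families. Cacna2d1, an alpha2delta subunit, had the smallest p among them, with -1.12, -0.79, -1.05 and -0.82 on WT arrays 1 to 4 and -1.02, -1.13, -1.70 and -1.39 on Glis3KO2 arrays 1 to 4. Glis3KO2 replicates 2, 3 and 4 were below all WT arrays, replicate 2 only just (-1.132, against -1.125 on WT replicate 1). Glis3KO2 replicate 1 lay within the WT range. The log2 difference was -0.36 (SE 0.16, limma adjusted p = 0.562) and a dimmer probe gave -0.27. Cacna2d2 and Cacna2d3 differed by 0.20 and 0.12.

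The 4 beta subunits (Cacnb), which bind the pore inside the cell, lay within 0.13 of 0. Cacnb2 was at -3.02, -2.65, -2.77 and -2.77 on WT arrays 1 to 4 and at -2.75, -3.20, -2.99 and -2.79 on Glis3KO2 arrays 1 to 4, so the groups overlapped (log2 difference -0.13, SE 0.13, limma adjusted p = 0.839). Cacnb3, a beta subunit of islet calcium channels, differed by -0.11 (SE 0.14). The 8 gamma subunits (Cacng), a family that also includes partners of glutamate receptors, differed by -0.13 to 0.19 by their brightest probes. Cacng4 was at -4.45, -3.99, -4.27 and -4.13 on WT arrays 1 to 4 and at -4.14, -4.34, -4.10 and -4.77 on Glis3KO2 arrays 1 to 4 (log2 difference -0.13, SE 0.17, limma adjusted p = 0.881). All 15 accessory subunit genes had intervals within a 2-fold change.

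Sodium channel pore subunits drive action potentials in nerve and muscle, and several contribute to the electrical activity of mouse beta cells. Scn8a, Scn2a1 and Scn1a, channels of central neurons, differed by -0.07, 0.11 and -0.12. For Scn2a1 the 3 tested probes had both signs, from -0.23 to 0.11. Scn4a, the skeletal muscle channel, differed by -0.42 (SE 0.33) and Scn10a, a channel of sensory neurons, by -0.32 (SE 0.24). Scn7a, a sodium-sensing relative, was kept with the fewest arrays, 3 WT arrays and 1 Glis3KO2 array clear of background, and differed by -0.23.

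Scn3a was read differently by its tested probes. The brighter one differed by -0.12 (SE 0.31). The dimmer one, clear of background on 1 WT array and 4 Glis3KO2 arrays, read -7.99, -5.84, -7.88 and -6.24 on WT arrays 1 to 4 and -5.32, -5.30, -3.31 and -6.20 on Glis3KO2 arrays 1 to 4, with Glis3KO2 replicate 4 inside the WT range. It met the filter through the Glis3KO2 arrays, and 3 of its 4 WT values are not well above background, so no difference or test is given. This probe was singled out after its values were seen. Scn2b and Scn3b, which encode sodium channel beta subunits, cell adhesion proteins that modulate the pore, differed by -0.08 and -0.0086. For Scn3b the 3 tested probes had both signs, from -0.07 to 0.27.

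TRPM channels held the 2 largest differences among the TRP genes. Trpm5, a channel that opens on a rise in calcium and depolarises taste cells and beta cells, read -2.19, -3.01, -2.00 and -1.66 on WT arrays 1 to 4 and -4.10, -3.20, -3.27 and -3.34 on Glis3KO2 arrays 1 to 4. All Glis3KO2 arrays were below all WT arrays, with WT replicate 2 the closest to them. The log2 difference was -1.26 (SE 0.30, a 2.40-fold lower signal, 95% interval -1.94 to -0.58), with an unadjusted p of 0.0023 and a limma adjusted p of 0.220. With normexp background correction it was -0.74 (adjusted p = 0.078), the lowest adjusted p that any channel gene described array by array reached under the alternatives.

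Trpm2, a calcium-permeable channel opened by ADP-ribose under oxidative stress, read -2.89, -3.67, -3.63 and -3.17 on WT arrays 1 to 4 and -3.78, -4.29, -4.18 and -4.32 on Glis3KO2 arrays 1 to 4. The groups did not overlap, and Glis3KO2 replicate 1 was the closest to WT. Its log2 difference was -0.80 (SE 0.20, a 1.75-fold lower signal), with an unadjusted p of 0.0031 and a limma adjusted p of 0.247, and -0.38 with normexp background correction. The beta cell markers as a list were lower in Glis3KO2, as given above. Trpm5, Trpm2 and Cacna1b were also lower by their brightest probes, none past the adjusted threshold. The dimmer Cacna1b probe pointed the other way, as given above. Whether the markers and these genes followed each other from array to array within a genotype was not tested. Over all tested probes, 5.87% were lower and 3.1% higher at an unadjusted p of 0.05 by limma, and 0.174% and 0.0812% at the adjusted threshold. Of 8 tested neuron markers 0 passed the adjusted threshold and 4 were lower at an unadjusted p of 0.05. The summed signal of the neuron list was 5.98 to 7.15 in WT and 4.60 to 6.23 in Glis3KO2. Of 7 markers of other islet cells 2 fell past the adjusted threshold and 5 were lower at an unadjusted p of 0.05, with a summed signal of 214 to 240 in WT and 128 to 204 in Glis3KO2. All 5 endothelial markers had a negative difference, 2 of them with an unadjusted p under 0.05 and 0 past the adjusted threshold by limma, and their summed signal was 19.8 to 23.7 in WT and 15.3 to 18.4 in Glis3KO2. Of 9 shared endocrine markers, 1 was higher and 1 lower past the adjusted threshold by limma. At an unadjusted p of 0.05, 3 of these were higher and 2 lower, and their summed signal was 153 to 185 in WT and 138 to 251 in Glis3KO2. The summed signals of beta cell, other islet and endothelial markers did not overlap between the genotypes, while those of neuron and shared endocrine markers did. The part of these cell types in the differences was not tested.

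The other TRPM genes differed less. Trpm4, the closest relative of Trpm5 and also opened by calcium, differed by -0.05 (SE 0.10), with all 8 arrays between 0.65 and 0.99. A dimmer Trpm4 probe differed by -0.25 (adjusted p = 0.692). Trpm7 and Trpm6, channels fused to a kinase that carry magnesium, differed by 0.09 and 0.08. Trpm3, a channel gated by steroids and heat, differed by -0.29 (SE 0.27).

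**Figure D3:**
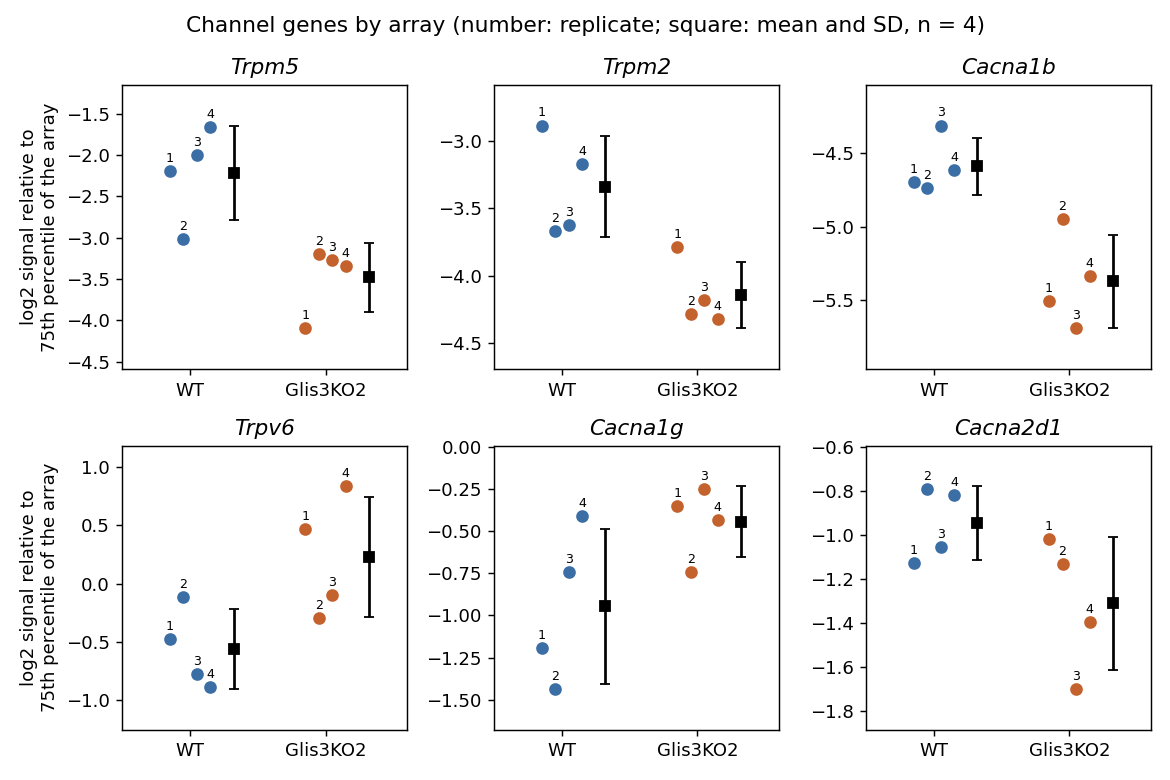
Log2 signal relative to the 75th percentile of the array for 6 channel genes on each WT and Glis3KO2 array (points, numbered by replicate) with the mean and SD of each group (square and bar, n = 4). The groups are apart for Trpm5, Trpm2 and Cacna1b and overlap for Trpv6, Cacna1g and Cacna2d1.

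Among TRPV genes, Trpv6, a calcium-selective channel of absorbing and secreting epithelia that also occurs in exocrine pancreas, was higher in Glis3KO2. It read -0.47, -0.12, -0.77 and -0.88 on WT arrays 1 to 4 and 0.47, -0.29, -0.10 and 0.83 on Glis3KO2 arrays 1 to 4. Glis3KO2 replicates 1, 3 and 4 were above all WT arrays, replicate 3 only just (-0.095, against -0.117 on WT replicate 2). Glis3KO2 replicate 2 was below WT replicate 2. The log2 difference was 0.79 (SE 0.27, a 1.73-fold higher signal), with an unadjusted p of 0.0157 and a limma adjusted p of 0.430. Of 7 acinar markers 6 had a negative difference and 0 passed either threshold by limma (median log2 difference -0.13), and their summed signal was 3281 to 3838 in WT and 2865 to 3687 in Glis3KO2. Their part in the Trpv6 difference was not tested. Trpv4, a channel that responds to osmotic swelling, differed by -0.13 (SE 0.11). Trpv2 differed by 0.41 (SE 0.32), with 0.77 on Glis3KO2 replicate 1, against -0.86 to -0.20 on the other Glis3KO2 arrays.

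The TRPC genes, whose channels open downstream of phospholipase C, differed by -0.23 to 0.18. Trpc2 had the smallest p and was at -0.07, -0.04, 0.26 and 0.14 on WT arrays 1 to 4 and at -0.27, -0.08, -0.02 and -0.24 on Glis3KO2 arrays 1 to 4 (log2 difference -0.23, SE 0.11, limma adjusted p = 0.617). Its 5 tested probes all had a negative difference, from -0.27 to -0.11. The RefSeq accession of one of them now carries the symbol Xntrpc in the reference gene table, so these probes may not read Trpc2 alone. Trpc1, Trpc4 and Trpc6 differed by 0.18, 0.10 and -0.22, and Trpc4ap by 0.09 (SE 0.11). Trpc1 read -1.87 on Glis3KO2 replicate 3, against -3.34 to -3.08 on the other Glis3KO2 arrays. The 5 tested probes of Trpc4ap differed by -0.27 to 0.23.

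Of the 59 genes, 10 did not reach 4 arrays well above background and were not tested. Cacna1e, the R-type channel, Scn9a, Trpc5, Trpc7 and Trpm8 were not well above background on any array. Scn11a, Trpm1 and Trpv5 were on 1 array each, Trpv3 on 2 and Cacna1f on 3. At the edge of that filter, Scn7a was kept with 4 arrays and group means of -5.42 and -5.64 in WT and Glis3KO2, and Cacna1f was left out with means of -5.83 and -5.80. A dim probe gives no statement that a channel is absent.

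Of the 22 channel genes with several tested probes, 12 had probes of 1 sign and 10 had probes of both. None of the 35 further tested probes passed the adjusted threshold. At an unadjusted p of 0.05 by limma, 3 were lower (8.57%, against 5.87% of all tested probes), the pair from Cacna1d and 1 from Trpc2. The 35 include the dimmer Scn3a probe, which met the filter through Glis3KO2, and its unadjusted p is not read.

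Genes that work around these channels did not pass the test either, in lists chosen with earlier results of these data known (0 of each list by limma over all probes, against 0.256% of all tested probes). At an unadjusted p of 0.05, the counts of the lists stand beside 5.87% of all tested probes lower and 3.1% higher, and nothing particular to a list is read from them. Among 16 genes of calcium stores and store-operated entry 3 were lower at an unadjusted p of 0.05, with the smallest p for Itpr3, an inositol trisphosphate receptor of secretory cells (log2 difference -0.34, SE 0.10, adjusted p = 0.329). Among 9 genes of calcium extrusion and mitochondrial uptake 1 was lower, the calcium pump Atp2b2 (-0.39, SE 0.14). Among 17 calcium sensors and kinases 2 were lower, with the smallest p for Camk2b, a calmodulin-dependent kinase (-0.57, SE 0.12, adjusted p = 0.163), which was below every WT array on all Glis3KO2 arrays. Among 19 channel partners and other TRP genes 1 was lower and 1 higher, Gem, a small GTPase that inhibits calcium channels (0.41, SE 0.12, adjusted p = 0.335). Among 6 epithelial sodium and acid-sensing channel genes 2 were lower, with the smallest p for Scnn1b, a subunit of the epithelial sodium channel (-0.59, SE 0.14, adjusted p = 0.226). The median log2 differences of the 5 lists, in this order, were -0.06, 0.099, -0.02, -0.097 and -0.20.

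The letters TGGGGGGT, a core that Glis proteins are known to bind, were searched on both strands of RefSeq promoters (GRCm38.p6, 250 bases before to 50 after each start). Promoters were at hand for 47 of the 59 genes, and 1 gene held the letters, Trpc7, which was not tested. Over all 27025 genes with a promoter, 1.79% held them. No match says only that these letters are not in this window.

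**Figure D4:**
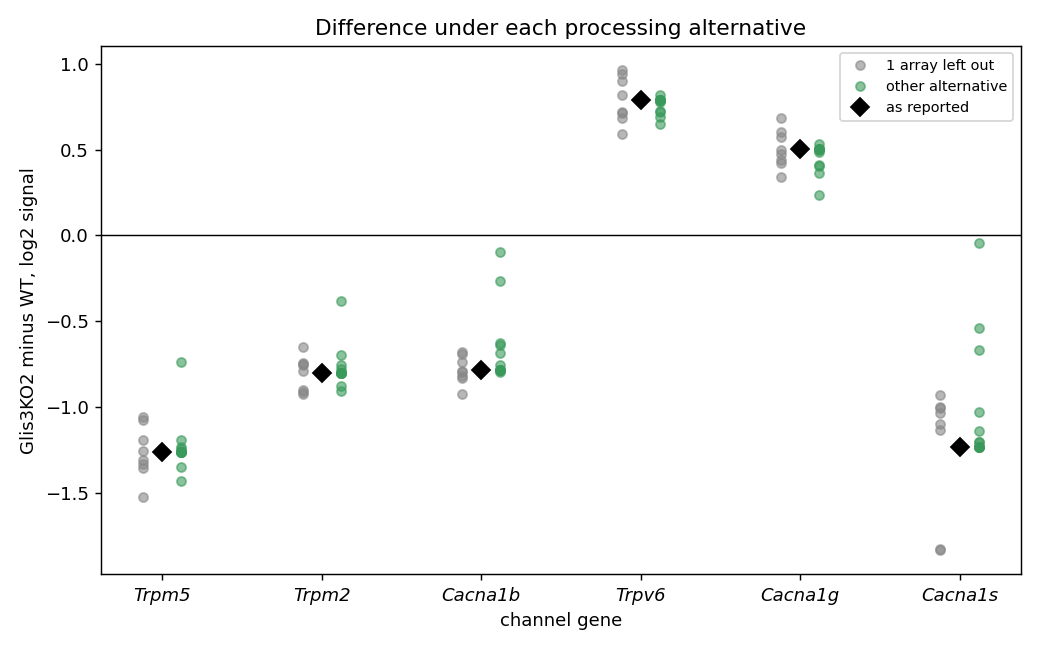
Log2 difference between Glis3KO2 and WT for 6 channel genes as reported (black diamond), with 1 array left out (grey) and under the other processing alternatives (green). Trpm5 stays between -1.53 and -0.74 and Trpv6 between 0.59 and 0.96, while Cacna1b reaches -0.096 with the mean of its probes and Cacna1s -0.05 with the Xist level as a covariate.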

How the data were processed

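Total RNA of 8 pancreas samples was labelled with Cy3 from 500 ng, per the labels' protocols, and 1 sample was hybridised per array. Deposited values are linear spot intensity values that the authors read with Agilent Feature Extraction 9.5.3.1 per the file headers (9.5 per the submitters' processing notes), detrended within each array and not scaled between arrays. The deposited series table held the same 45018 values per array. Spot positions are on mm7, per the file headers.

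Here the processed signal was put on the log2 scale and set against the 75th percentile of its own array, taken over 43379 spots that were not controls. Outlier spots as marked by the scanner software (56 to 130 an array) did not enter, and repeated spots of 1 probe were averaged. No spot was saturated, and 31352 to 35613 probes stood well above background on an array. The number of arrays limits the precision. Genotypes were compared with limma 3.58.1 in R 4.3.3 (lmFit and eBayes, 2-sided, genotype as sole term), and intervals are at 95%. On simulated data from 33195 probes with 200 changed, this fit recovered 70% of 2-fold and 89% of 4-fold changes, with 3.64% of calls false. These shares were not worked out for the channel genes. Of those, 81.6% had intervals within a 2-fold change, against 90.5% of all tested probes.

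The members and lists were chosen with earlier results of these data known. Values on all arrays are given for members past an unadjusted p of 0.05 and for the smallest p of each subfamily. Of the 49 genes, 3 enter all counts but are not reported by name here, which leaves the sodium channel subfamilies without such an example. Cacna1s, Cacna1d, the dimmer Scn3a probe, a second gamma subunit probe and the probe ranges of Scn2a1 and Scn3b were added after values were seen. For 72 of the 79 channel probes that carry a RefSeq accession, that accession was found among the reference genes. Alternatives were other background, scaling and filter settings, the series table, trend and robust eBayes, array weights, the mean of a gene's probes, a replicate block and leaving out arrays. A fit with Xist as covariate and one without both Glis3KO2 replicates 3 and 4 were chosen after seeing the data. Python 3.11.15 drew the figures.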

Additional observations from a re-analysis of the deposited data

Results flagged for a closer look

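Among 92 groups of 4 arrays (46 channel genes in both genotypes), 7 held an array far from the other 3, where chance gives about 1 in 20. On WT replicate 1, Cacng8 was high (-2.71, against -3.49 on the nearest array), Scn10a was high (-1.54, against -2.46) and Trpc1 was low (-3.19, against -2.99). On WT replicate 3, Cacna1i was low (-4.62, against -4.34). On Glis3KO2 replicate 1, Scn3a was high (-4.71, against -5.70) and Trpm5 was low (-4.10, against -3.34). On Glis3KO2 replicate 2, Cacna1s was high (0.50, against -1.69), the one Glis3KO2 array with low Xist. Without Glis3KO2 replicate 1 the log2 difference of Trpm5 was -1.06.

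Outside the tested genes, Trpm1 was well above background on 1 Glis3KO2 array and on 0 WT arrays by its brighter probe.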

How the results depend on the processing

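No channel gene passed the adjusted threshold under any of the 20 alternatives run, so the count of 0 in each direction stood. The number with a negative difference ranged from 25 to 34 with 1 array left out and was 20 without Glis3KO2 replicates 3 and 4, against 31 as reported. The median over the channel genes ranged from -0.13 to -0.0069 with 1 array left out. Of 220 single-gene differences under the alternatives, 218 kept their sign and 2 small ones reversed: Cacna1d at 0.019 without WT replicate 3 (-0.21 to 0.019 with 1 array left out) and Cacng4 at 0.017 without Glis3KO2 replicate 4 (-0.21 to 0.017). The cause was not tested. Under the filter settings, series table, replicate block and trend and robust eBayes these differences stayed the same by construction. Their signs could not reverse there, and the series table only repeats the reported fit.

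The background count over all probes (27 higher, 58 lower) moved more. It was 44 and 98 with trend and robust eBayes, 12 and 15 with the Xist covariate, and 5 and 6 without Glis3KO2 replicates 3 and 4. Without a filter on dim probes 32 were lower. With 1 array left out it ranged from 15 to 25 higher and from 20 to 73 lower, and leaving out any single array other than Glis3KO2 replicate 1 moved a count by over 1.5 times. With the replicate block 7 were higher and 8 lower. The labels do not say what the replicate numbers mark. Deviations of same-numbered arrays correlated at -0.04 to 0.24, and 3 of 4 WT arrays correlated best with their own number. Whether same-numbered arrays share a litter or a day was not tested.

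Dim probes limit several values: normexp correction, which adds an offset of 50, moved Cacna1b to -0.27, Trpm2 to -0.38 and Trpm5 to -0.74.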
